A study of Arabidopsis thaliana with 15 samples.

Results

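The comparison set 4-day-old dark-grown Arabidopsis seedlings that then received 4 h of white light (L4h) against seedlings of the same growth that were harvested at 4 days without light (Dark), in total RNA. Its members were the 6 libraries that the labels name as L4h and Dark total RNA, 3 of each, out of 15 in the series, and all 33323 genes listed for them were used. All seedlings were Col-0, the laboratory wild type, grown on half-strength MS agar after 4 days of stratification, at 22 °C, and only the parts above ground were collected. The light was 100 µmol per square metre and second. The L4h seedlings were 4 h older than the Dark seedlings, and the design of this comparison does not separate light from age. The labels do not say whether the replicates were separate sowings, so the p-values measure the spread between these libraries.

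A seedling that grows in darkness elongates its hypocotyl, keeps its cotyledons closed and builds etioplasts that hold protochlorophyllide in place of chlorophyll. Light starts de-etiolation: photoreceptors inactivate repressors of greening, phytochrome-interacting factors (PIFs, bHLH proteins that promote dark growth) are degraded, chloroplasts form, the cotyledons open and hypocotyl growth slows. Light-responsive promoters are known for short motifs such as the G-box, which bZIP and bHLH factors bind.

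Of the 33323 genes, 26588 had a read in the 6 libraries, and 21512 passed the filter on low counts and were tested. The number of estimated reads in listed genes, in M reads, was 72.9 to 100.9 per library. In the edgeR quasi-likelihood test 3135 genes (14.6% of those tested) rose and 1893 (8.8%) fell at an adjusted p under 0.05; with the replicate number as a block 4593 (21.4%) rose and 3748 (17.4%) fell. At 2-fold or more 2303 genes (10.7%) rose and 1154 (5.36%) fell, and 1761 fell that far with the block. In 44.0% of the tested genes the 3 L4h values did not overlap the 3 Dark values. The genes that rose carried 25.1 to 30.9% of the summed RPKM in L4h libraries and 6.31 to 8.2% in Dark libraries, and the genes that fell carried 5.6 to 6.84% in L4h libraries and 15.9 to 18.9% in Dark libraries. The largest changes ran upwards: 150 genes rose and 52 fell by 5 or more on the log2 scale.

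The first principal component, 62.6% of the variance of log2 CPM, separated the L4h libraries (78.6 to 107.4) from the Dark libraries (-103.9 to -70.2). The second, 24.1%, separated the 2 libraries numbered 1 (72.6 in L4h, 84.5 in Dark) from the other 4 (-52.1 to -25.8). In Dark, replicates 2 and 3 differed by a median of 0.137 in log2 CPM, against 0.382 and 0.446 for the pairs with replicate 1. In L4h, replicates 2 and 3 differed by 0.254, against 0.358 and 0.419. How far the closeness of Dark replicates 2 and 3 shaped the calls was not tested. Leaving out a single library numbered 2 or 3 lowered the counts. Then 1523 genes rose and 644 fell without Dark replicate 2, and 1805 and 815 without Dark replicate 3. The counts were 2002 and 945 without L4h replicate 2, and 2113 and 963 without L4h replicate 3. They were 3192 and 2189 without Dark replicate 1, and 2958 and 1828 without L4h replicate 1. Without the pair numbered 1 the counts were 4363 and 3538, without the pair numbered 2 they were 225 and 38, and without the pair numbered 3 they were 670 and 190. Of 10 root marker genes fixed for a check of the tissue, 6 did not pass the filter on low counts; TIP2;3 had 626, 1092 and 1066 CPM in L4h and 1025, 1307 and 1189 CPM in Dark, PHT1;1 had 3.83, 11.1 and 15.1 CPM in L4h and 5.5, 20.8 and 41.9 CPM in Dark, and the other 2 tested were under 4 CPM throughout. On a scaling over all 15 libraries the epidermis markers summed to 971 to 1660 CPM in L4h and 1010 to 1240 CPM in Dark, and the meristem markers to 172 to 252 CPM in L4h and 157 to 180 CPM in Dark. The 3 seed markers summed to 43.9, 1.71 and 37.3 CPM in L4h and 87.2, 4.65 and 390 CPM in Dark on that scaling. Replicate 2 was the lowest library of both groups in the seed markers and Dark replicate 3 the highest of all 6. No marker passed the test without the block. With the block PHT1;1 (-1.19, adjusted p = 0.021) and the seed markers CRA1 (-2.59, adjusted p = 0.039) and CRC (-2.42, adjusted p = 0.027) were lower, and KNAT1 of the meristem (0.45, adjusted p = 0.049) and ATML1 of the epidermis (0.52, adjusted p = 0.045) were higher, each as a log2 change of L4h over Dark. Their part in the results was not tested.

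**Figure D1:**
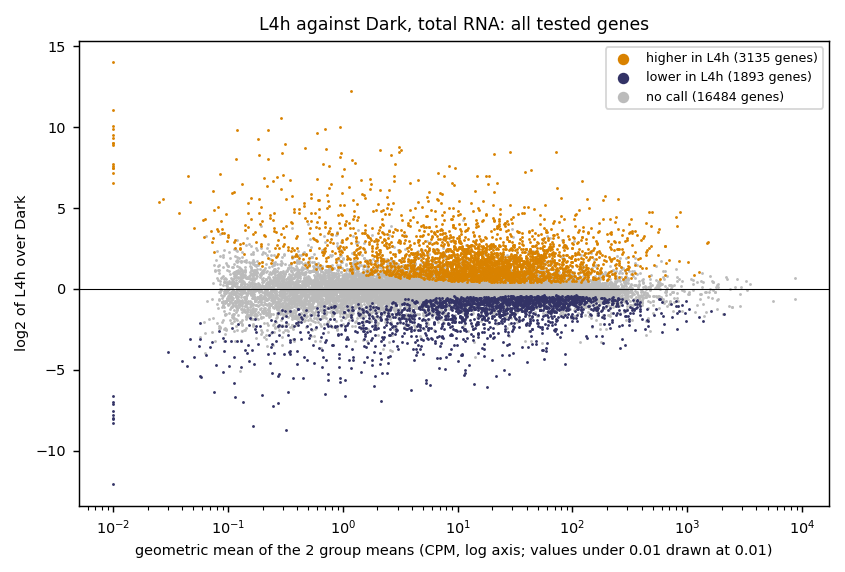
Each point is 1 of the 21512 tested genes, placed by the geometric mean of its 2 group means in CPM (log axis) and by its log2 change of L4h over Dark. The 3135 genes that rose are orange, the 1893 that fell are dark blue, and both spread over the whole range of levels.

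The upstream sequences of 6 genes that are described next are shown because they carry, in capitals, the G-box (CACGTG) or the PIF-binding E-box (CATGTG, read CACATG on the other strand), which the results below count over all genes. Each is the 250 bases before the gene start in RefSeq TAIR10.1, 5′ to 3′ on the strand of the gene.
AT2G36885, chr2:15483789-15484038, minus strand: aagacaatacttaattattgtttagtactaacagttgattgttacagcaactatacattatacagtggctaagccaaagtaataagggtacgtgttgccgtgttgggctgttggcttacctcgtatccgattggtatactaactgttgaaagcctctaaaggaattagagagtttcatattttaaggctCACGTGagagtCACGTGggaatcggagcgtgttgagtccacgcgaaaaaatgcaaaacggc
PSB28, chr4:14149599-14149848, plus strand: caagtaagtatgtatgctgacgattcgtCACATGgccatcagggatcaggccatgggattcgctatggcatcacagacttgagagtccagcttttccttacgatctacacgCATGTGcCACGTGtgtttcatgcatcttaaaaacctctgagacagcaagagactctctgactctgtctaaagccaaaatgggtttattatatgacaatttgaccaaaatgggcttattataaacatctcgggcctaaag
LHCA4, chr3:17495034-17495283, minus strand: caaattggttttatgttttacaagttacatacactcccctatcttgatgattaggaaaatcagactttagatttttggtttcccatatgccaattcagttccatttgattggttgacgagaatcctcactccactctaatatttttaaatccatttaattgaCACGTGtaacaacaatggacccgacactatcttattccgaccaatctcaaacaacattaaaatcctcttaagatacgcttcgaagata
FHL, chr5:437115-437364, plus strand: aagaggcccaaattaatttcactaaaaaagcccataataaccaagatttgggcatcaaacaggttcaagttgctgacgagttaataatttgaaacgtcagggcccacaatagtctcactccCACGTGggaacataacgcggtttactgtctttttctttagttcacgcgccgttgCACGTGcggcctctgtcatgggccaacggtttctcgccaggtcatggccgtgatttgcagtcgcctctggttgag
YSL3, chr5:21755001-21755250, plus strand: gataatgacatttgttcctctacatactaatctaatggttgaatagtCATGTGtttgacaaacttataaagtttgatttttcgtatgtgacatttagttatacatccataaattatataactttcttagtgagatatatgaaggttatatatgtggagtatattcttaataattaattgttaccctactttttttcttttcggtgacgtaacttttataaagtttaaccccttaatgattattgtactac
GASA4, chr5:4944566-4944815, plus strand: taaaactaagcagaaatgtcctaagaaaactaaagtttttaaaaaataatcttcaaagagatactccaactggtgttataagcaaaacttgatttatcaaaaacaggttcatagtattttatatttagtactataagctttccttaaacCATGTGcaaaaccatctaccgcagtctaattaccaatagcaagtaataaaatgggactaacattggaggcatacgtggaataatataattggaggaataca
The first 3 genes rose and the last 3 fell. FHL, which fell, held 2 G-boxes, as AT2G36885, which rose, did.

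The genes with the smallest p among those that rose were low in darkness. CPM below are counts per M reads after TMM scaling. The ± value is an approximate standard error of a log2 change of L4h over Dark. It is the absolute change divided by the square root of the F statistic of the edgeR test. Adjusted p is the Benjamini-Hochberg value of that test over all 21512 genes. Where a call was lost when 1 library was left out, the largest adjusted p is given with the library whose omission gave it. ECS1 (chr1:11310997-11311989) had 49.3, 42.1 and 46.7 CPM in L4h and 0.95, 1.07 and 0.86 CPM in Dark (5.58 ± 0.17, adjusted p = 0.00026). MYB13, an R2R3-MYB transcription factor, had 20.5, 26.9 and 25.2 CPM in L4h and 0.796, 0.785 and 0.678 CPM in Dark (5.004 ± 0.19, adjusted p = 0.0003). PSB28, a factor of photosystem II assembly, had 114, 104 and 145 CPM in L4h and 3.9, 3.08 and 3.16 CPM in Dark (5.16 ± 0.21, adjusted p = 0.0003). The genes of this set were picked among those whose groups did not overlap and whose mean reached 10 CPM in the higher group.

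A further 6 genes of this set have no symbol in the annotation. AT3G56290, annotated as a potassium transporter, had 152, 122 and 105 CPM in L4h and 0.531, 0.67 and 0.898 CPM in Dark (7.48 ± 0.30, adjusted p = 0.0003), the largest change of the 10. AT2G32640, annotated as a lycopene cyclase protein, had 47.2, 42.7 and 48.8 CPM in L4h and 2.98, 3.03 and 2.59 CPM in Dark (4.01 ± 0.15, adjusted p = 0.0003). AT2G36885, annotated as a translation initiation factor, had 79.2, 73.2 and 97.3 CPM in L4h and 2.64, 2.69 and 3.25 CPM in Dark (4.86 ± 0.19, adjusted p = 0.0003). AT5G56850 and AT3G28160 are uncharacterized and rose by 5.04 and 3.81 on the log2 scale. AT5G42760, a leucine carboxyl methyltransferase by annotation, rose by 6.73, but 39.1% of its exon bases lie in another gene too. NCS1, a nucleobase transporter, was the member with the highest Dark level, 134, 141 and 123 CPM in L4h and 15.3, 16.7 and 15.6 CPM in Dark (3.06 ± 0.13, adjusted p = 0.00033).

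The genes with the smallest p among those that fell include a wall hydrolase, transporters and a phytochrome partner. GH9B13, a glycosyl hydrolase of the endoglucanase family (chr4:1002338-1005305), had 4.03, 4.09 and 5.34 CPM in L4h and 116, 153 and 162 CPM in Dark (-5.001 ± 0.22, adjusted p = 0.00036). YSL3, which moves metal complexes of nicotianamine, had 23.8, 25 and 22.9 CPM in L4h and 98.7, 109 and 100 CPM in Dark (-2.10 ± 0.12, adjusted p = 0.00059). FHL, a partner that carries phytochrome A into the nucleus, had 2.15, 1.76 and 1.81 CPM in L4h and 14.3, 16.5 and 17.5 CPM in Dark (-3.08 ± 0.17, adjusted p = 0.0006). These genes too were picked among those whose groups did not overlap. The homeobox gene HB-3 (AT5G15150) had 4.66, 5.38 and 5.61 CPM in L4h and 45.5, 61.1 and 61.6 CPM in Dark (-3.43 ± 0.18, adjusted p = 0.00057). The ABC transporter gene ABCG42 fell by 2.43 on the log2 scale, the alpha/beta-hydrolase gene AT3G61680 by 4.26, the pectin methylesterase inhibitor gene AT1G62770 by 2.00 and AT1G11120 by 4.00. AT2G04500, of the C1 domain family, had 1.54, 1.25 and 1.41 CPM in L4h and 12.5, 18.7 and 18.1 CPM in Dark (-3.55 ± 0.23, adjusted p = 0.00078). AT5G02580, annotated as an argininosuccinate lyase, had 1.16, 1.71 and 1.31 CPM in L4h and 30, 44.4 and 57.2 CPM in Dark (-4.97 ± 0.32, adjusted p = 0.0008).

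**Figure D2:**
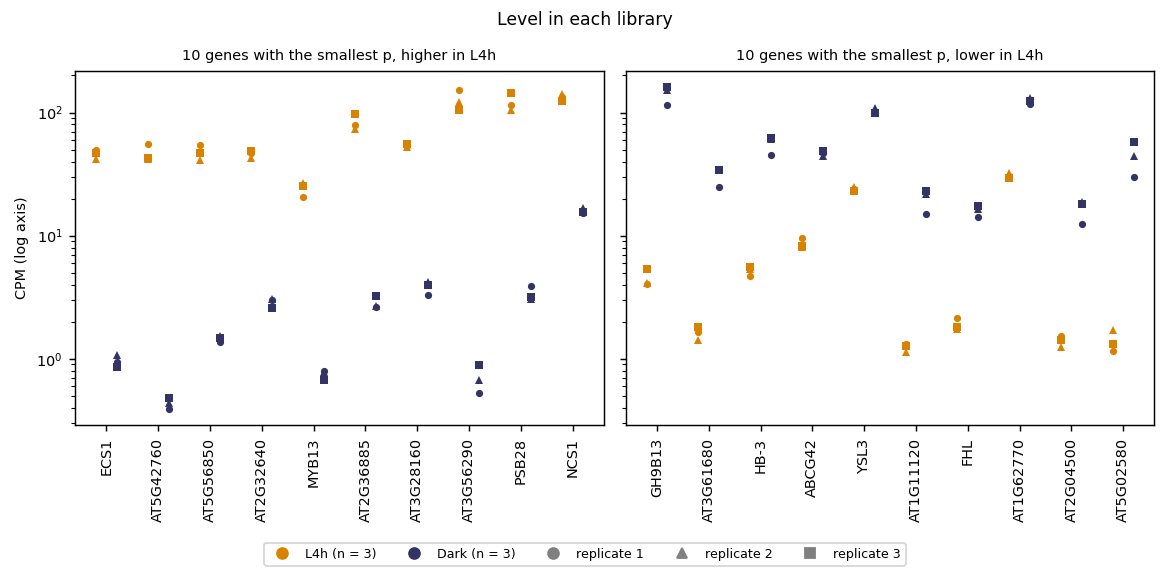
CPM (log axis) in each library of the 10 genes with the smallest p among those that rose (left) and among those that fell (right), L4h in orange left of Dark in dark blue, replicates 1 to 3 as circle, triangle and square. All 20 genes were picked among those in which the 3 L4h values did not overlap the 3 Dark values.

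By gain in mean RPKM, a level per transcript length, the 8 leading genes were those of 4 antenna proteins, 2 Rubisco small subunits, Rubisco activase and the cold-regulated membrane protein COR413-PM1. COR413-PM1 had 1808, 1635 and 1367 CPM in L4h and 401, 181 and 192 CPM in Dark (2.64 ± 0.38, adjusted p = 0.0052), a mean of 1718 RPKM in L4h and 288 RPKM in Dark. LHCA4, an antenna protein of photosystem I, had 2585, 1331 and 2287 CPM in L4h and 339, 70.9 and 56 CPM in Dark (3.73 ± 0.81, adjusted p = 0.02, 0.074 without Dark replicate 2). LHB1B2 shares 100% of its exon bases with another gene, so its gain is uncertain. By loss in mean RPKM the 8 leading genes include genes of the plasma membrane, vacuole and wall. GASA4, a gibberellin-regulated peptide gene, had 415, 291 and 325 CPM in L4h and 2083, 2077 and 1704 CPM in Dark (-2.51 ± 0.24, adjusted p = 0.0016), a mean of 483 RPKM in L4h and 2900 RPKM in Dark. AT1G12080 and AT1G62480, both annotated as vacuolar calcium-binding proteins, had a mean of 673 RPKM in L4h and 2794 RPKM in Dark for the first and a mean of 298 RPKM in L4h and 2000 RPKM in Dark for the second. The fasciclin-like arabinogalactan protein gene FLA9 had 444, 180.4 and 249.9 CPM in L4h and 1068, 1373 and 1564 CPM in Dark (-2.19 ± 0.38, adjusted p = 0.01), and the pectin methylesterase gene ATPMEPCRD had 617, 852 and 639 CPM in L4h and 1539, 2639 and 2740 CPM in Dark (-1.71 ± 0.31, adjusted p = 0.011, 0.055 without Dark replicate 2). AGP4 fell by 3.65 on the log2 scale and shares 41.6% of its exon bases with another gene.

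The pathways below come from 30 lists of 439 genes, of which 425 were tested. In them 173 genes (40.7%) rose and 30 (7.06%) fell, beside 14.6% and 8.8% of all genes tested. The lists hold many plastid pathways, were chosen with earlier results of these data known and were not tested as sets. Of the 173 and 30 calls, 106 and 6 were kept without Dark replicate 2, and 122 and 12 without Dark replicate 3. The numbers kept were 143 and 11 without L4h replicate 2, and 132 and 15 without L4h replicate 3. They were 165 and 25 without Dark replicate 1, and 153 and 23 without L4h replicate 1.

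**Figure D3:**
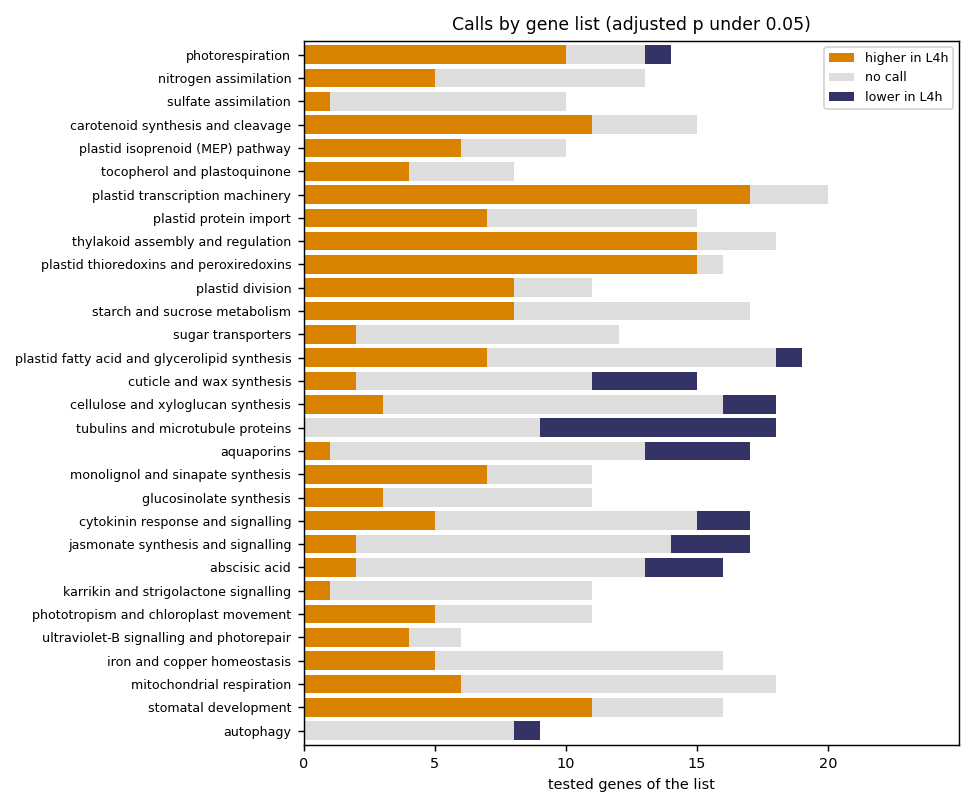
Bars give for each of 30 gene lists the number of tested genes that rose (orange), got no call (grey) and fell (dark blue) in L4h against Dark at an adjusted p under 0.05. In the plastid transcription list 17 of 20 rose, and in the tubulin list 9 of 18 fell and none rose, without the block.

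Photorespiration recycles the product of the oxygenase reaction of Rubisco through plastid, peroxisome and mitochondrion. Of 14 genes tested 10 rose and 1 fell (12 higher and 1 lower with the block), with a median log2 change of 2.64, beside 0.02 over all tested genes. Glycolate oxidase, the peroxisomal entry enzyme, is encoded by GOX1 with 910.1, 482 and 686 CPM in L4h and 73.4, 31.9 and 20.4 CPM in Dark (4.05 ± 0.56, adjusted p = 0.0047) and GOX2 with 804, 342 and 432 CPM in L4h and 152, 76.5 and 69.1 CPM in Dark (2.405 ± 0.46, adjusted p = 0.014, 0.065 without Dark replicate 2). In the mitochondrion, the glycine decarboxylase P protein gene GLDP1 had 3150, 1863 and 2317 CPM in L4h and 108, 84.1 and 75.7 CPM in Dark (4.78 ± 0.33, adjusted p = 0.00086). Serine hydroxymethyltransferase SHM1 had 1060, 618 and 765 CPM in L4h and 57.9, 31.9 and 33.4 CPM in Dark (4.31 ± 0.37, adjusted p = 0.0013). Dark replicate 1 was the highest Dark library in all 4 and the groups did not overlap. The glutamate:glyoxylate aminotransferase gene GGT1 had 1849, 879.9 and 937 CPM in L4h and 192, 62 and 45.6 CPM in Dark (3.61 ± 0.67, adjusted p = 0.012, 0.057 without Dark replicate 2). The exception was AT1G80380, a P-loop hydrolase protein by annotation, with 321, 247 and 174 CPM in L4h and 533, 570.2 and 519.7 CPM in Dark (-1.13 ± 0.25, adjusted p = 0.023, 0.089 without Dark replicate 2). The alanine:glyoxylate aminotransferase gene AGT1 had 972, 437 and 524 CPM in L4h and 668, 211 and 201 CPM in Dark (0.84 ± 0.57, adjusted p = 0.33, 0.021 with the replicate block). PGLP1, with 27.2, 0.0932 and 17.3 CPM in L4h and 1.86, 1.95 and 2.01 CPM in Dark (2.94 ± 1.41, adjusted p = 0.18), had L4h replicate 2 under all Dark libraries. With 1 library left out, 6 of the 10 that rose kept the call in all 6 fits.

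Nitrate reduction and ammonium assimilation supply amino groups to the growing leaf. Of 13 genes 5 rose and none fell (median 1.08, 6 higher and 2 lower with the block). The share called was 38.5% without the block, beside 23.4% of all tested genes. The nitrate reductase genes had 376, 584 and 728 CPM in L4h and 267, 123 and 61.4 CPM in Dark for NIA1 (1.903 ± 0.56, adjusted p = 0.054) and 792, 877 and 1084 CPM in L4h and 395, 151 and 85.6 CPM in Dark for NIA2 (2.12 ± 0.57, adjusted p = 0.04, 0.14 without Dark replicate 2). Plastid glutamine synthetase GLN2 had 1154, 798 and 1185 CPM in L4h and 237, 170.4 and 174 CPM in Dark (2.43 ± 0.26, adjusted p = 0.002). GLU1, the Fd-dependent glutamate synthase, had 1613, 988 and 1353 CPM in L4h and 276, 75.7 and 55.5 CPM in Dark (3.28 ± 0.68, adjusted p = 0.018, 0.07 without Dark replicate 2). The asparagine synthetase gene ASN2 moved furthest, with 93.6, 191 and 304 CPM in L4h and 7.46, 6.6 and 8.16 CPM in Dark (4.73 ± 0.47, adjusted p = 0.0017). All L4h libraries were above all Dark libraries in these 5 genes, of which NIA1 was not called. The cytosolic glutamine synthetase genes did not pass the test: GLN1;1 had 279, 244 and 144 CPM in L4h and 204, 237 and 262 CPM in Dark (-0.08 ± 0.27, adjusted p = 0.87). With 1 library left out, 3 of the 5 that rose kept the call in all 6 fits.

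Sulfate assimilation had 1 call, and 4 higher and 1 lower with the block, among 10 of 11 genes tested (median 0.76). Without the block 10.0% were called, beside 23.4% of all tested genes. The APS reductase gene APR2 had 58, 91 and 162 CPM in L4h and 11, 25.5 and 27.9 CPM in Dark (2.27 ± 0.498, adjusted p = 0.021, 0.069 without Dark replicate 2), with 46.4% of its exon bases shared. APR1 had 8.09, 28.4 and 38.4 CPM in L4h and 4.08, 14.6 and 16.4 CPM in Dark (1.09 ± 0.69, adjusted p = 0.3, 0.0036 with the replicate block). In both genes replicate 1 was the lowest library of its group.

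Carotenoids protect chlorophyll and make up part of the antenna. Of 15 genes 11 rose and none fell (median 1.71), and 15 rose with the block. Phytoene synthase PSY, the entry step, had 269, 207 and 336 CPM in L4h and 44.7, 28.3 and 23.9 CPM in Dark (3.07 ± 0.32, adjusted p = 0.0019). Phytoene desaturase PDS3 had 113, 77 and 103 CPM in L4h and 42, 24.4 and 23.2 CPM in Dark (1.71 ± 0.28, adjusted p = 0.0085). The carotene hydroxylase LUT5 changed most, 98.6, 84.6 and 111 CPM in L4h and 6.55, 4.74 and 4.69 CPM in Dark (4.201 ± 0.21, adjusted p = 0.00046). Its groups did not overlap. Zeaxanthin epoxidase ZEP had 273, 181 and 188 CPM in L4h and 55.7, 29.4 and 28 CPM in Dark (2.51 ± 0.34, adjusted p = 0.0042). LUT2, the epsilon-cyclase, had 84, 64.4 and 91.4 CPM in L4h and 24.7, 13.7 and 11.3 CPM in Dark (2.27 ± 0.33, adjusted p = 0.0053). The cleavage dioxygenase CCD4 had 22.4, 6.83 and 6.69 CPM in L4h and 13.9, 2.88 and 2.33 CPM in Dark (0.91 ± 0.83, adjusted p = 0.47, 0.012 with the replicate block) with overlapping groups. Upstream, 6 of the 10 genes of the plastid isoprenoid (MEP) pathway rose and none fell (median 1.31, 7 higher and 0 lower with the block), and the 6 kept the call in every fit with 1 library left out. Its entry gene DXS had 726, 496 and 602 CPM in L4h and 383, 130.2 and 99.1 CPM in Dark (1.58 ± 0.53, adjusted p = 0.08, 0.017 with the replicate block). DXR, the second step, had 128, 109 and 168 CPM in L4h and 31, 30.8 and 34.1 CPM in Dark (2.08 ± 0.19, adjusted p = 0.0015). The synthases MDS and MCT rose by 1.48 and 1.33 on the log2 scale. The geranylgeranyl diphosphate synthase GGPPS11 had 97, 62.2 and 99.2 CPM in L4h and 38.4, 31.3 and 32.6 CPM in Dark (1.34 ± 0.21, adjusted p = 0.0073). HDR, the last step, had 463, 214 and 187 CPM in L4h and 411, 166 and 171 CPM in Dark (0.21 ± 0.50, adjusted p = 0.8).

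Tocopherol and plastoquinone synthesis branches from the same precursors, and 4 of its 8 genes rose and none fell (median 1.15, 6 higher and 1 lower with the block). The tocopherol cyclase VTE1 had 20.9, 28.1 and 28.2 CPM in L4h and 3.13, 3.68 and 2.73 CPM in Dark (3.02 ± 0.202, adjusted p = 0.00086). The homogentisate solanesyltransferase HST had 30.4, 25.1 and 38.9 CPM in L4h and 12, 10.7 and 11.4 CPM in Dark (1.47 ± 0.19, adjusted p = 0.0036). The methyltransferases VTE3 and VTE4 had 229.6, 144 and 193 CPM in L4h and 67.2, 46.1 and 39.5 CPM in Dark (1.89 ± 0.27, adjusted p = 0.0052) and 7.75, 10.4 and 15.6 CPM in L4h and 5.99, 3.2 and 4.03 CPM in Dark (1.35 ± 0.35, adjusted p = 0.036, 0.12 without Dark replicate 2). HPD, which makes homogentisate, had 222, 89.2 and 44.9 CPM in L4h and 698, 204 and 178 CPM in Dark (-1.601 ± 0.76, adjusted p = 0.18, 0.0044 with the replicate block), and its Dark replicate 1 was above all other libraries.

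Plastid genes are transcribed by a bacterial-type polymerase with nuclear-encoded sigma factors and associated proteins, and by a phage-type polymerase. Of 20 genes for these 17 rose and none fell (median 1.76, 19 higher and 0 lower with the block), and 12 of the 17 kept the call in every fit with 1 library left out. The sigma factor SIG5 went furthest, 257, 215 and 152 CPM in L4h and 3.3, 0.785 and 0.955 CPM in Dark (6.97 ± 0.71, adjusted p = 0.0018). SIG1 had 122, 69.4 and 101 CPM in L4h and 35.8, 14.7 and 11.6 CPM in Dark (2.24 ± 0.47, adjusted p = 0.019, 0.078 without Dark replicate 2). SIG2 had 123, 87.6 and 127 CPM in L4h and 33.9, 25.4 and 24.2 CPM in Dark (2.02 ± 0.21, adjusted p = 0.002). The fructokinase-like protein FLN2 had 71.5, 37.5 and 38.2 CPM in L4h and 7.82, 7.52 and 7.05 CPM in Dark (2.72 ± 0.29, adjusted p = 0.0021). PTAC7, an associated protein, had 42.1, 27.3 and 40.3 CPM in L4h and 7.28, 7.27 and 6.89 CPM in Dark (2.35 ± 0.20, adjusted p = 0.0013). SIG4 had 42.6, 18 and 28 CPM in L4h and 16.8, 5.88 and 4.2 CPM in Dark (1.73 ± 0.59, adjusted p = 0.082, 0.0095 with the replicate block), with 13.8% of its exon bases shared. In SIG5 all L4h libraries were above 100 CPM and all Dark libraries under 5 CPM. The superoxide dismutase FSD3, a part of the polymerase complex, had 19.9, 17.2 and 21.2 CPM in L4h and 5.99, 5.76 and 6.5 CPM in Dark (1.68 ± 0.14, adjusted p = 0.0013). FSD2 had 5.9, 8.08 and 18 CPM in L4h and 6.34, 5.52 and 6.83 CPM in Dark (0.77 ± 0.42, adjusted p = 0.23).

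Proteins made in the cytosol enter the plastid through the Toc and Tic complexes. Of 15 genes for import 7 rose and none fell (median 0.72, 10 higher and 0 lower with the block). The receptors of the outer envelope got no call: TOC159, with 13.2% of exon bases shared, had 370.4, 292 and 311 CPM in L4h and 348, 214 and 158 CPM in Dark (0.43 ± 0.31, adjusted p = 0.35). TOC132 had 123, 106 and 105 CPM in L4h and 115, 89.9 and 82.3 CPM in Dark (0.22 ± 0.17, adjusted p = 0.4). TOC120 had 37.1, 37.2 and 35.3 CPM in L4h and 40, 35.4 and 33.6 CPM in Dark (0.01 ± 0.12, adjusted p = 0.97). TIC55, of the inner envelope, had 62, 37.3 and 47.8 CPM in L4h and 14.3, 4.74 and 3.86 CPM in Dark (2.69 ± 0.55, adjusted p = 0.017, 0.067 without Dark replicate 2). The channel TOC75-III rose (1.399 ± 0.15, adjusted p = 0.0022). The inner-envelope redox protein TIC62 had 91.6, 71.5 and 117 CPM in L4h and 9.95, 7.94 and 8.37 CPM in Dark (3.42 ± 0.23, adjusted p = 0.00086). CPHSC70-2, a stromal chaperone, had 506, 339.7 and 473 CPM in L4h and 68.5, 54.5 and 58.3 CPM in Dark (2.86 ± 0.22, adjusted p = 0.0011). The receptor groups overlapped, and those of TIC55, TOC75-III, TIC62 and CPHSC70-2 did not. Without Dark replicate 2, 4 of the 7 kept the call.

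Once inside, antenna and photosystem proteins are inserted, assembled and repaired in the thylakoid. Of 18 genes for this 15 rose and none fell (median 2.06, 17 higher and 0 lower with the block), and 7 of the 15 kept the call in every fit with 1 library left out. The insertase ALB3 had 365, 236 and 307 CPM in L4h and 337, 154 and 141 CPM in Dark (0.52 ± 0.38, adjusted p = 0.37), while its partner CPSRP54 had 129, 95.8 and 146 CPM in L4h and 50.2, 34.1 and 30.6 CPM in Dark (1.69 ± 0.26, adjusted p = 0.006). The protease subunit FTSH1 (11.7% of exon bases shared), of the photosystem II repair complex, had 245, 222 and 214 CPM in L4h and 40.6, 17.9 and 15.3 CPM in Dark (3.21 ± 0.41, adjusted p = 0.0035). PGRL1A and PGR5, of cyclic electron flow, had 192, 118 and 169 CPM in L4h and 21.6, 12.4 and 13.7 CPM in Dark (3.33 ± 0.305, adjusted p = 0.0015) and 88.7, 65.1 and 82.2 CPM in L4h and 17.4, 6.8 and 6.34 CPM in Dark (2.95 ± 0.44, adjusted p = 0.0058). The state-transition kinase STN7 had 96, 53.6 and 58.7 CPM in L4h and 20.3, 8.59 and 7.27 CPM in Dark (2.53 ± 0.47, adjusted p = 0.012, 0.054 without Dark replicate 2). Dark replicate 1 was the highest Dark library in each of these 6 genes and still below every L4h library, except in ALB3.

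Thioredoxins and ferredoxins pass electrons from the photosystems to plastid enzymes. Of 16 genes 15 rose and none fell (median 2.41, 15 higher and 1 lower with the block), and 14 of the 15 kept the call in every fit with 1 library left out. Thioredoxin TRXF1, which activates Calvin cycle enzymes, had 75.5, 55.5 and 87.8 CPM in L4h and 5.29, 3.43 and 2.86 CPM in Dark (4.24 ± 0.32, adjusted p = 0.001; 10.6% of exon bases shared). TRXF2 had 63.1, 36.8 and 40.2 CPM in L4h and 8.93, 6.98 and 6.42 CPM in Dark (2.65 ± 0.27, adjusted p = 0.0018). The peroxiredoxin PRXQ had 153, 116 and 199 CPM in L4h and 11.8, 11.3 and 14.2 CPM in Dark (3.65 ± 0.25, adjusted p = 0.00086). The leaf ferredoxins FD1 and FD2 had 457, 345 and 421 CPM in L4h and 56.4, 22.1 and 17.6 CPM in Dark (3.67 ± 0.496, adjusted p = 0.0042) and 1618, 622 and 1031 CPM in L4h and 192, 61.1 and 45.5 CPM in Dark (3.45 ± 0.68, adjusted p = 0.015, 0.067 without Dark replicate 2). The exception was TRXY1, with 4.58, 6.39 and 4.96 CPM in L4h and 6.13, 11.5 and 13.6 CPM in Dark (-0.97 ± 0.32, adjusted p = 0.076, 0.034 with the replicate block; 21% of exon bases shared), and its paralog TRXY2 had 37.4, 27.8 and 32.8 CPM in L4h and 9.33, 7.17 and 5.79 CPM in Dark (2.14 ± 0.23, adjusted p = 0.002). The TRXY1 groups overlapped and those of TRXY2 did not.

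Plastid division rests on a ring of FtsZ proteins inside the plastid and a dynamin ring outside. Of 11 genes 8 rose and none fell (median 0.79, 9 higher and 0 lower with the block). FTSZ1 had 27.9, 24 and 24.8 CPM in L4h and 7.79, 10.3 and 11.3 CPM in Dark (1.38 ± 0.18, adjusted p = 0.0036). FTSZ2-1 had 48.7, 38.1 and 36.7 CPM in L4h and 35.9, 21.9 and 22.2 CPM in Dark (0.63 ± 0.24, adjusted p = 0.11, 0.013 with the replicate block). The division protein ARC3 had 13.5, 12.6 and 17.2 CPM in L4h and 6.29, 6.66 and 7.17 CPM in Dark (1.105 ± 0.17, adjusted p = 0.0065). FTSZ2-2 had 21.2, 29.5 and 39.5 CPM in L4h and 7.03, 8.42 and 10.4 CPM in Dark (1.799 ± 0.28, adjusted p = 0.0063). ARC5, dynamin-like, had 45.6, 38.2 and 55.3 CPM in L4h and 18.6, 15.5 and 14.9 CPM in Dark (1.51 ± 0.18, adjusted p = 0.003). With 1 library left out, 4 of the 8 kept the call in all fits.

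Starch and sucrose genes rose in 8 of 17 cases and none fell (median log2 change 0.98, 11 higher and 0 lower with the block). The subunits of ADP-glucose pyrophosphorylase, which makes the starch precursor, had 67.6, 81.5 and 136 CPM in L4h and 12.8, 20.4 and 22.6 CPM in Dark for APS1 (2.35 ± 0.34, adjusted p = 0.0054) and 86, 77.8 and 126 CPM in L4h and 28.1, 14.8 and 12.8 CPM in Dark for APL1 (2.38 ± 0.36, adjusted p = 0.0062), the second with 37.2% of exon bases shared. The beta-amylase gene BAM3, of starch breakdown, had 90.4, 54.5 and 73.4 CPM in L4h and 3.3, 2.1 and 2.21 CPM in Dark (4.85 ± 0.298, adjusted p = 0.00072), with 25.2% shared. The granule-bound starch synthase GBSS1 had 6.45, 12.4 and 36.4 CPM in L4h and 1.41, 1.83 and 2.67 CPM in Dark (3.22 ± 0.68, adjusted p = 0.019, 0.081 without Dark replicate 2). TPT, the triose phosphate translocator, had 510.5, 419 and 601 CPM in L4h and 178, 61.4 and 40.8 CPM in Dark (2.45 ± 0.57, adjusted p = 0.026, 0.099 without Dark replicate 2). Sucrose phosphate synthase SPSA1, with 138, 139 and 184 CPM in L4h and 132, 128 and 141 CPM in Dark (0.197 ± 0.16, adjusted p = 0.43), had overlapping groups. Of the 8, 3 kept the call in every fit with 1 library left out. Among 12 sugar transporters 2 rose and none fell (median -0.11, 2 higher and 1 lower with the block), 16.7% called beside 23.4% of all tested genes. The fructose carrier SWEET17 had 91, 120.3 and 101 CPM in L4h and 38.4, 20.4 and 24.6 CPM in Dark (1.91 ± 0.27, adjusted p = 0.0047). SWEET1 had 14.9, 15 and 21.6 CPM in L4h and 7.84, 3.2 and 2.25 CPM in Dark (1.96 ± 0.48, adjusted p = 0.032, 0.11 without Dark replicate 2). With 1 library left out, 1 of the 2 kept the call in all 6 fits. The monosaccharide carriers STP1 and STP13 had 532, 134 and 48.9 CPM in L4h and 1396, 668 and 552 CPM in Dark (-1.87 ± 0.88, adjusted p = 0.17, 0.014 with the replicate block; 12.6% of exon bases shared) and 39.8, 105 and 111 CPM in L4h and 81.4, 109 and 96.4 CPM in Dark (-0.17 ± 0.38, adjusted p = 0.79).

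Plastid lipids build the thylakoid membrane. Of 19 genes of fatty acid and glycerolipid synthesis 7 rose and 1 fell (median 0.32, 9 higher and 1 lower with the block). The share called was 42.1% without the block, beside 23.4% of all tested genes. FAD4, which makes the trans-hexadecenoate of phosphatidylglycerol, had 119.7, 66.4 and 72.5 CPM in L4h and 2.07, 0.345 and 0.401 CPM in Dark (6.56 ± 0.85, adjusted p = 0.0037), with 16.2% of exon bases shared. FAD8 and FAD5, desaturases of plastid lipids, had 84.2, 67.8 and 114 CPM in L4h and 4.16, 5.07 and 5.3 CPM in Dark (4.19 ± 0.25, adjusted p = 0.00063) and 256, 136 and 225 CPM in L4h and 26.3, 10.1 and 9.28 CPM in Dark (3.76 ± 0.51, adjusted p = 0.0044). In all 3 the groups did not overlap. BCCP1, a subunit of acetyl-CoA carboxylase, had 73.4, 70.6 and 96.1 CPM in L4h and 58, 69.9 and 64.2 CPM in Dark (0.32 ± 0.17, adjusted p = 0.21), and BCCP2 was the gene that fell, with 13, 10.2 and 10.1 CPM in L4h and 20.9, 21.6 and 17.2 CPM in Dark (-0.85 ± 0.17, adjusted p = 0.016, 0.08 without Dark replicate 2; 19.8% of exon bases shared). The galactolipid synthase gene MGD1 rose (1.12 ± 0.201, adjusted p = 0.011, 0.058 without Dark replicate 2).

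At the surface, the genes of cuticular wax moved both ways. Of 15 of 17 genes tested 2 rose and 4 fell (median -0.04, 2 higher and 5 lower with the block). The share called was 40.0%, beside 23.4% of all tested genes. The aldehyde- and alkane-forming CER1 had 182, 113 and 92.5 CPM in L4h and 196, 148 and 119.6 CPM in Dark (-0.26 ± 0.31, adjusted p = 0.59). CER2 had 131, 152 and 159 CPM in L4h and 202, 260.2 and 266 CPM in Dark (-0.72 ± 0.17, adjusted p = 0.029, 0.12 without Dark replicate 2; 25.3% of exon bases shared). The fatty acyl reductase CER4 had 0.0208, 0.0466 and 0.0504 CPM in L4h and 0.293, 2.35 and 1.82 CPM in Dark (-5.22 ± 0.92, adjusted p = 0.01). WSD1, a wax ester synthase, had 5.5, 5.27 and 2.75 CPM in L4h and 16.7, 18.5 and 14.8 CPM in Dark (-1.89 ± 0.29, adjusted p = 0.0065). The acyl-CoA synthetase LACS2, needed for cutin, rose with 75.8, 89.7 and 104 CPM in L4h and 21, 29.4 and 32.9 CPM in Dark (1.69 ± 0.21, adjusted p = 0.0034). Of the calls, 1 higher and 2 lower held in every fit with 1 library left out. CER4 was under 3 CPM in all libraries, and its Dark replicate 1 was the Dark library nearest to L4h.

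Cellulose and xyloglucan form the load-bearing network of the wall. Of 18 genes listed for cellulose and xyloglucan synthesis 3 rose and 2 fell (median 0.10, 4 higher and 4 lower with the block). The list also holds the pectin gene QUA2, which is among those that fell. The share called in either direction was 27.8%, near the 23.4% of all tested genes. Primary wall cellulose synthase CESA1 had 799.5, 1045 and 1347 CPM in L4h and 795, 632 and 620.3 CPM in Dark (0.64 ± 0.26, adjusted p = 0.12). CESA2 had 263, 636 and 794 CPM in L4h and 88.6, 145 and 152 CPM in Dark (2.14 ± 0.45, adjusted p = 0.019, 0.069 without Dark replicate 2). CESA5 had 191, 401 and 533 CPM in L4h and 54, 92.2 and 93.4 CPM in Dark (2.23 ± 0.43, adjusted p = 0.014, 0.054 without Dark replicate 2). Replicate 1 was the lowest library of its group in CESA2 and CESA5. The xyloglucan glucan synthase CSLC4 had 88.1, 103 and 130.4 CPM in L4h and 214, 338 and 423 CPM in Dark (-1.60 ± 0.29, adjusted p = 0.012, 0.051 without Dark replicate 2). QUA2, a pectin methyltransferase, had 62.2, 70.9 and 83.9 CPM in L4h and 114, 131 and 128 CPM in Dark (-0.78 ± 0.16, adjusted p = 0.016, 0.077 without Dark replicate 2). No call of this list held in every fit with 1 library left out.

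Tubulins are the building blocks of the microtubules that guide cellulose deposition. Of 18 tested genes of tubulins and microtubule proteins 9 fell and none rose (median -0.76, 1 higher and 10 lower with the block), beside 8.8% lower among all genes, and 1 of the 9, TUB1, kept the call in every fit with 1 library left out, while 2 kept it without Dark replicate 2. TUB1 had 18.1, 20.4 and 45.6 CPM in L4h and 124, 210.5 and 247 CPM in Dark (-2.79 ± 0.46, adjusted p = 0.008), with 34.4% of exon bases shared. TUB6 had 236, 224 and 260.2 CPM in L4h and 682, 481 and 456 CPM in Dark (-1.17 ± 0.21, adjusted p = 0.012, 0.057 without L4h replicate 2). TUB4 had 724, 411 and 522 CPM in L4h and 1432, 988 and 1050 CPM in Dark (-1.07 ± 0.29, adjusted p = 0.041, 0.12 without L4h replicate 2). TUB5 had 264, 239 and 322 CPM in L4h and 441, 519.7 and 644 CPM in Dark (-0.96 ± 0.22, adjusted p = 0.024, 0.088 without Dark replicate 2). The groups of these 4 did not overlap. TUB2 had 226, 145 and 192 CPM in L4h and 327, 212 and 190.5 CPM in Dark (-0.37 ± 0.27, adjusted p = 0.37). The alpha-tubulins TUA2 (-0.82 ± 0.19, adjusted p = 0.026, 0.095 without Dark replicate 2), TUA4 (-0.74 ± 0.19, adjusted p = 0.036, 0.12 without L4h replicate 2) and TUA6 (-0.78 ± 0.19, adjusted p = 0.03, 0.11 without Dark replicate 2) fell. Tubulin genes are alike in sequence, so the split of reads between members is uncertain.

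Aquaporins carry water across the plasma membrane (PIP) and the vacuole (TIP). Of 17 genes 1 rose and 4 fell (median 0.09, 2 higher and 5 lower with the block), none of which held in every fit with 1 library left out. The share called was 29.4%, near the 23.4% of all tested genes. PIP1;1 had 1545, 1321 and 1153 CPM in L4h and 1398, 1552 and 1597 CPM in Dark (-0.18 ± 0.21, adjusted p = 0.59). PIP1;2 had 5183, 3395 and 3200 CPM in L4h and 3622, 2950 and 2877 CPM in Dark (0.32 ± 0.296, adjusted p = 0.48). PIP2;4 had 50.5, 125 and 102 CPM in L4h and 179, 944 and 1279 CPM in Dark (-3.11 ± 0.76, adjusted p = 0.03, 0.096 without L4h replicate 3). PIP1;3 had 1777, 967 and 886 CPM in L4h and 3399, 3508 and 3718 CPM in Dark (-1.55 ± 0.34, adjusted p = 0.021, 0.081 without L4h replicate 2). In PIP2;4 Dark replicate 1 was the Dark library nearest to L4h. PIP1;5 had 755, 637 and 642 CPM in L4h and 1179, 1661 and 1960 CPM in Dark (-1.24 ± 0.26, adjusted p = 0.018, 0.079 without Dark replicate 2). TIP2;1 had 1474, 626 and 873 CPM in L4h and 2211, 2696 and 2817 CPM in Dark (-1.38 ± 0.36, adjusted p = 0.038, 0.12 without Dark replicate 2; 14% of exon bases shared).

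Of 11 genes of monolignol and sinapate synthesis 7 rose and none fell (median 1.54, 8 higher and 0 lower with the block). Sinapate esters absorb ultraviolet light in the epidermis. Ferulate 5-hydroxylase FAH1 had 69.3, 199 and 227 CPM in L4h and 2.65, 0.584 and 0.698 CPM in Dark (6.996 ± 0.88, adjusted p = 0.0033). The sinapate glucosyltransferases UGT84A2 and UGT84A1 had 137, 339.6 and 401 CPM in L4h and 14.4, 15.7 and 18.1 CPM in Dark (4.19 ± 0.44, adjusted p = 0.0019) and 2.21, 10.1 and 10.7 CPM in L4h and 0.251, 0.0574 and 0.0764 CPM in Dark (5.95 ± 0.89, adjusted p = 0.006). In all 3 L4h replicate 1 was the lowest L4h library and above every Dark library. The entry enzymes had 193, 202 and 234 CPM in L4h and 164, 192 and 180.5 CPM in Dark for HCT (0.23 ± 0.15, adjusted p = 0.32) and 105, 128 and 157 CPM in L4h and 51, 67.7 and 63.8 CPM in Dark for CYP98A3 (1.096 ± 0.198, adjusted p = 0.011). SNG1, the last acyltransferase, had 1087, 565 and 328 CPM in L4h and 723, 354 and 361 CPM in Dark (0.46 ± 0.504, adjusted p = 0.55). Of the 7, 6 kept the call in every fit with 1 library left out.

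Of 19 glucosinolate genes 11 passed the filter on low counts, and 3 of these rose and none fell (median 0.53), 6 and 1 with the block. Without the block 27.3% were called, near the 23.4% of all tested genes. MYB28, an activator of the aliphatic branch, had 1.66, 12.6 and 23.9 CPM in L4h and 0.14, 0.345 and 0.497 CPM in Dark (5.25 ± 1.05, adjusted p = 0.016, 0.07 without Dark replicate 2). UGT74B1 had 36.6, 61.2 and 43.5 CPM in L4h and 19.8, 27.4 and 29.5 CPM in Dark (0.88 ± 0.25, adjusted p = 0.046, 0.12 without Dark replicate 2) and SUR1, a C-S lyase, 35, 60 and 50.1 CPM in L4h and 25.1, 37.9 and 42.5 CPM in Dark (0.46 ± 0.27, adjusted p = 0.27, 0.035 with the replicate block). AT2G31790, a UDP-glycosyltransferase by annotation, had 18.3, 20.8 and 21.1 CPM in L4h and 1.06, 1.49 and 1.65 CPM in Dark (3.83 ± 0.22, adjusted p = 0.0006), with 18.6% of exon bases shared. With 1 library left out, 1 of the 3 kept the call in all 6 fits. MYB28 was high in L4h replicates 2 and 3 and low in replicate 1.

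For cytokinin 5 of 17 rose and 2 fell (median -0.04, 6 higher and 3 lower with the block). The share called was 41.2% without the block, beside 23.4% of all tested genes. Without Dark replicate 2 or without L4h replicate 3, 1 of the 5 kept the call, and both that fell kept it in every fit with 1 library left out. The type-A response regulators, which cytokinin induces, ranged: ARR3 had 0.956, 2.33 and 2.04 CPM in L4h and 0.601, 4.24 and 6.97 CPM in Dark (-1.15 ± 0.81, adjusted p = 0.35). ARR4 had 59.2, 86.4 and 94.8 CPM in L4h and 18.6, 45.9 and 49.1 CPM in Dark (1.08 ± 0.39, adjusted p = 0.093, 0.0087 with the replicate block). ARR16 and ARR7 had 1.77, 0.839 and 3.1 CPM in L4h and 0.279, 0.067 and 0.086 CPM in Dark (3.75 ± 0.76, adjusted p = 0.017, 0.068 without Dark replicate 2) and 4.67, 2.61 and 6.37 CPM in L4h and 1.61, 1.61 and 2 CPM in Dark (1.39 ± 0.36, adjusted p = 0.036, 0.13 without Dark replicate 2). ARR15 had 0.187, 0.175 and 0.642 CPM in L4h and 0.014, 0.0191 and 0.0382 CPM in Dark. The type-B activator ARR1 had 68.4, 69.7 and 56.7 CPM in L4h and 145, 126 and 119 CPM in Dark (-1.003 ± 0.15, adjusted p = 0.0059), and the cytokinin oxidase CKX5 fell by 1.37. For jasmonate 2 of 17 rose and 3 fell, 5 and 4 with the block (median 0.03). Without the block 29.4% were called, near the 23.4% of all tested genes. Allene oxide cyclase AOC2 had 1.29, 5.29 and 10.6 CPM in L4h and 0.0698, 0.22 and 0.172 CPM in Dark (5.18 ± 0.898, adjusted p = 0.0098). AOC4 had 16, 31.3 and 33.9 CPM in L4h and 58.1, 55.9 and 64.6 CPM in Dark (-1.14 ± 0.29, adjusted p = 0.034, 0.099 without Dark replicate 3). LOX2 had 0.187, 1.4 and 1.84 CPM in L4h and 0.0279, 0 and 0.0382 CPM in Dark, and AOS 20.4, 29.2 and 28.9 CPM in L4h and 26.8, 24.5 and 21.7 CPM in Dark (0.103 ± 0.18, adjusted p = 0.73). Of the 5 calls, 1, for a gene that rose, held in every fit with 1 library left out. The repressor gene JAZ3 had 13.8, 11.9 and 7.21 CPM in L4h and 30, 20.5 and 23.3 CPM in Dark (-1.17 ± 0.28, adjusted p = 0.029, 0.08 without L4h replicate 2).

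For abscisic acid 2 of 16 genes tested rose and 3 fell (median -0.21, 3 higher and 4 lower with the block), and none of the 5 held in every fit with 1 library left out. The share called was 31.2%, beside 23.4% of all tested genes. The synthesis enzyme NCED3 had 7.17, 8.79 and 3.9 CPM in L4h and 26.2, 19.2 and 14.8 CPM in Dark (-1.60 ± 0.35, adjusted p = 0.022, 0.069 without Dark replicate 2). AAO3, the last enzyme of synthesis, had 39.5, 37.3 and 32.2 CPM in L4h and 48.4, 36.3 and 36 CPM in Dark (-0.15 ± 0.17, adjusted p = 0.57; 13.8% of exon bases shared). The bZIP factor ABI5 had 6.05, 6.95 and 4.81 CPM in L4h and 16.7, 12.5 and 10.2 CPM in Dark (-1.14 ± 0.24, adjusted p = 0.019, 0.067 without Dark replicate 2). The cold and ABA responsive KIN1 had 4.76, 4.26 and 3.83 CPM in L4h and 1.72, 0.488 and 0.44 CPM in Dark (2.29 ± 0.57, adjusted p = 0.033, 0.11 without Dark replicate 2). The responsive gene RD29A rose, with 160.4, 412 and 529 CPM in L4h and 65.5, 22.9 and 30.8 CPM in Dark (3.21 ± 0.59, adjusted p = 0.012, 0.053 without Dark replicate 3), while RD29B had 169, 86.2 and 9.62 CPM in L4h and 261, 52 and 21.5 CPM in Dark (-0.34 ± 1.17, adjusted p = 0.86) and overlapping groups. In karrikin signalling 1 of 11 genes rose, 4 with the block (median 0.40), 9.09% called without the block beside 23.4% of all tested genes. The receptor KAI2 had 191, 192 and 159.5 CPM in L4h and 29.4, 18 and 14.5 CPM in Dark (3.13 ± 0.297, adjusted p = 0.0015). AT3G03990, an alpha/beta-hydrolase protein, had 127, 76.1 and 64.1 CPM in L4h and 98.7, 59.8 and 52.8 CPM in Dark (0.34 ± 0.34, adjusted p = 0.52, 0.045 with the replicate block).

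Light movement responses were led by RPT2, a partner of phototropin 1, with 1171, 1054 and 1106 CPM in L4h and 122, 20.7 and 10.9 CPM in Dark (4.44 ± 0.97, adjusted p = 0.021, 0.075 without Dark replicate 2). Of 11 genes for phototropism and chloroplast movement 5 rose and none fell (median 1.32, 7 higher and 1 lower with the block). Of the photoreceptors, PHOT2 had 320.2, 303 and 353 CPM in L4h and 86.9, 60.3 and 48.2 CPM in Dark (2.32 ± 0.25, adjusted p = 0.0021), with 38.8% of exon bases shared, and PHOT1 358, 328 and 433 CPM in L4h and 575, 465 and 515 CPM in Dark (-0.47 ± 0.19, adjusted p = 0.12). The kinesin-like KAC1, needed for chloroplast movement, had 224, 229 and 269.7 CPM in L4h and 24.4, 22 and 21.8 CPM in Dark (3.41 ± 0.15, adjusted p = 0.00036). AT1G18810, a phytochrome kinase substrate-like protein by annotation, had 10.8, 6.78 and 8.63 CPM in L4h and 0.796, 0.297 and 0.564 CPM in Dark (3.99 ± 0.42, adjusted p = 0.002). Dark replicate 1 was the highest Dark library in RPT2, PHOT2, KAC1 and AT1G18810. Without Dark replicate 2, 3 of the 5 that rose kept the call.

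For ultraviolet-B signalling and photorepair 4 of 6 genes rose and none fell (median 3.19, 4 higher and 0 lower with the block). The receptor UVR8 had 106, 122 and 126 CPM in L4h and 115, 87 and 84.6 CPM in Dark (0.31 ± 0.17, adjusted p = 0.24). Its repressors RUP2 and RUP1 had 72.7, 92.3 and 85 CPM in L4h and 2.26, 2.33 and 1.56 CPM in Dark (5.34 ± 0.23, adjusted p = 0.00036) and 87.5, 63.9 and 43.6 CPM in L4h and 26.9, 16.2 and 14.2 CPM in Dark (1.77 ± 0.35, adjusted p = 0.015, 0.067 without Dark replicate 2). The photolyase PHR1, which repairs ultraviolet damage in DNA, had 8.99, 14.5 and 14.9 CPM in L4h and 0.447, 0.708 and 0.363 CPM in Dark (4.65 ± 0.37, adjusted p = 0.0012). CRY3, a cryptochrome, had 76.1, 90.9 and 95.3 CPM in L4h and 5.32, 2.81 and 2.62 CPM in Dark (4.61 ± 0.34, adjusted p = 0.00097). The second photolyase UVR3 had 15.8, 13.7 and 12.5 CPM in L4h and 30.5, 10.8 and 8.73 CPM in Dark (-0.25 ± 0.48, adjusted p = 0.74). The 4 genes that rose had no overlap between groups, and UVR3 and UVR8 did.

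Of 16 iron and copper genes 5 rose and none fell, 8 and 1 with the block (median 0.76). The share called was 31.2% without the block, beside 23.4% of all tested genes. The ferritins, which store iron in the plastid, had 369, 330.1 and 464 CPM in L4h and 455, 161 and 111 CPM in Dark for FER1 (0.68 ± 0.53, adjusted p = 0.4), 67.9, 76.5 and 153 CPM in L4h and 16.3, 25.5 and 22.7 CPM in Dark for FER3 (2.203 ± 0.36, adjusted p = 0.0082) and 64.9, 62.1 and 92 CPM in L4h and 23, 23.9 and 20.7 CPM in Dark for FER4 (1.697 ± 0.19, adjusted p = 0.0022). The nicotianamine synthase NAS4 had 2.75, 4.26 and 8.1 CPM in L4h and 0.503, 0.191 and 0.678 CPM in Dark (3.46 ± 0.62, adjusted p = 0.011) and the phloem transporter OPT3 67.5, 59.9 and 84.7 CPM in L4h and 35.7, 18.7 and 22.8 CPM in Dark (1.46 ± 0.27, adjusted p = 0.013, 0.054 without Dark replicate 3). In FER1 Dark replicate 1 lay among the L4h libraries. Of 18 mitochondrial genes 6 rose and none fell (median 0.14, 6 higher and 1 lower with the block), and 2 of the 6 kept the call in every fit with 1 library left out. The share called was 33.3% without the block, beside 23.4% of all tested genes. NDA1, an alternative NADH dehydrogenase, had 25.6, 11.3 and 13.3 CPM in L4h and 0.0279, 0.0191 and 0.115 CPM in Dark (8.19 ± 0.72, adjusted p = 0.0014). Cytochrome c CYTC-2 had 25, 32.8 and 33.8 CPM in L4h and 7.88, 8.03 and 6.58 CPM in Dark (2.03 ± 0.18, adjusted p = 0.0014). FUM2, a fumarase, had 1.59, 2.04 and 2.63 CPM in L4h and 0.866, 0.565 and 0.306 CPM in Dark (1.85 ± 0.45, adjusted p = 0.029, 0.11 without Dark replicate 2). The citrate synthase CSY4 had 107, 138 and 148 CPM in L4h and 99.4, 118 and 131 CPM in Dark (0.18 ± 0.18, adjusted p = 0.53) and the aconitase ACO1 370.1, 280.3 and 278 CPM in L4h and 502, 452 and 464 CPM in Dark (-0.61 ± 0.18, adjusted p = 0.058, 0.027 with the replicate block). Of 9 autophagy genes 1 fell, 3 with the block, and none rose (median -0.39), 11.1% called without the block beside 23.4% of all tested genes. ATG8F had 92.9, 110.2 and 82.3 CPM in L4h and 165, 186 and 168 CPM in Dark (-0.86 ± 0.16, adjusted p = 0.012, 0.063 without Dark replicate 2). ATG8A had 118, 106 and 82.1 CPM in L4h and 135, 125 and 142 CPM in Dark (-0.39 ± 0.17, adjusted p = 0.15). ATG8B had 34, 29.5 and 15.1 CPM in L4h and 63.2, 36.8 and 35.2 CPM in Dark (-0.78 ± 0.37, adjusted p = 0.17, 0.029 with the replicate block).

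Stomata form from protodermal cells through the successive bHLH factors SPCH, MUTE and FAMA. Of 16 genes of this lineage 11 rose and none fell (median 1.91, 12 higher and 1 lower with the block), and 5 of the 11 kept the call in every fit with 1 library left out. SPCH, which starts the lineage, had 4.25, 4.38 and 8.64 CPM in L4h and 0.992, 0.555 and 0.612 CPM in Dark (3.003 ± 0.42, adjusted p = 0.0045). MUTE had 0.738, 0.524 and 1.16 CPM in L4h and 0.209, 0.163 and 0.0382 CPM in Dark (2.57 ± 0.67, adjusted p = 0.038, 0.12 without L4h replicate 3). FAMA, the last factor, had 3.98, 2.09 and 3.44 CPM in L4h and 2.67, 1.16 and 0.564 CPM in Dark (1.12 ± 0.59, adjusted p = 0.22). The peptide signal EPF2 had 1.26, 1.05 and 2.8 CPM in L4h and 0.126, 0.182 and 0.143 CPM in Dark (3.48 ± 0.51, adjusted p = 0.0053) and the polarity protein BASL 1.6, 2.55 and 4.26 CPM in L4h and 0.182, 0.383 and 0.459 CPM in Dark (3.02 ± 0.52, adjusted p = 0.0098). In SPCH, MUTE, EPF2 and BASL every L4h library exceeded every Dark library. The receptor subunit TMM rose (2.08 ± 0.33, adjusted p = 0.007), while the receptor kinase ER had 98.9, 81.2 and 109 CPM in L4h and 124, 87.7 and 80.6 CPM in Dark (-0.02 ± 0.21, adjusted p = 0.96). AT4G31805, annotated as a WRKY family factor, had 1.69, 2.95 and 8.34 CPM in L4h and 0.265, 0.632 and 0.764 CPM in Dark (2.95 ± 0.71, adjusted p = 0.03, 0.099 without Dark replicate 2), with 20.2% of exon bases shared. Several of these are at a few CPM. The guard-cell markers, MYB60 and FAMA, summed to 9.22 to 10.7 CPM in L4h and 5.77 to 8.15 CPM in Dark on the scaling over all 15 libraries, and of the 4 epidermis markers 1, ATML1, was called, with the block alone. In bulk RNA more cells of a type and more RNA per cell cannot be told apart.

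**Figure D4:**
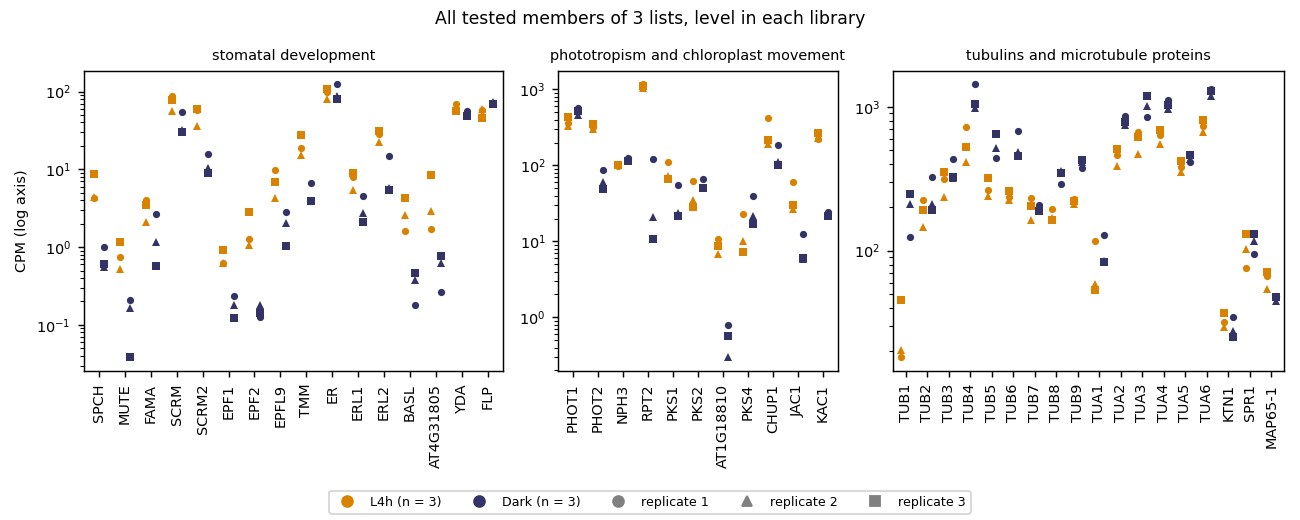
CPM (log axis) in each library for all tested genes of 3 lists, L4h in orange left of Dark in dark blue, replicates 1 to 3 as circle, triangle and square. In the stomatal list 11 of 16 genes rose, in the phototropism list 5 of 11 rose, and in the tubulin list 9 of 18 fell, without the block.

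Genes were also grouped by product description in the annotation, and 31 descriptions had at least 50 tested genes. In 17 of the 31 more genes rose than fell. SAUR-like genes, small auxin-responsive genes, fell in 38 of 67 cases (56.7%) and rose in 6, and genes of the cysteine/histidine-rich C1 domain family fell in 33 of 94 (35.1%) and rose in 3, beside 8.8% of all genes lower. Both families were singled out after their values were seen. Among the C1 domain genes AT2G02630 had 0.488, 0.664 and 0.378 CPM in L4h and 7.98, 13.4 and 14.9 CPM in Dark (-4.57 ± 0.36, adjusted p = 0.0012; 26.5% of exon bases shared). AT2G19660 had 3.37, 1.26 and 1.07 CPM in L4h and 55.9, 80.6 and 75 CPM in Dark (-5.21 ± 0.52, adjusted p = 0.0018). AT2G19650 moved the other way, with 5.44, 6.76 and 7.18 CPM in L4h and 0.126, 0.345 and 0.401 CPM in Dark (4.45 ± 0.46, adjusted p = 0.0018). With the block 53 C1 domain genes fell and 5 rose. Pentatricopeptide repeat proteins, which process organelle RNA, rose in 30 of 188 cases and fell in 2 (1.06%), 44 and 5 with the block. LPA66, one of them, had 23.1, 20 and 26.9 CPM in L4h and 6.27, 5.25 and 5.28 CPM in Dark (2.06 ± 0.17, adjusted p = 0.0013). Tetratricopeptide repeat proteins rose in 43 of 260 cases (16.5%) and fell in 5 (1.92%), 69 and 15 with the block. Their shares higher lie near the 14.6% of all genes, and their shares lower under the 8.8%.

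Of 178 listed microRNA genes 53 passed the filter, and 4 rose (7.55%) and 7 fell (13.2%), beside 14.6% and 8.8% of all genes. With the block 4 rose and 13 fell. The counts are of the precursor transcript, not of the mature microRNA. The mature sequences of 6 of the 11 called genes are shown, with bases 2 to 8, the seed, in capitals, from RefSeq TAIR10.1.
miR163, chr1:24884359-24884382, plus strand: uUGAAGAGgacuuggaacuucgau
miR157c-5p, chr3:6244673-6244693, minus strand: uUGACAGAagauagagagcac
miR167b, chr3:23406177-23406197, plus strand: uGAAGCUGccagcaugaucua
miR167d, chr1:11137556-11137577, plus strand: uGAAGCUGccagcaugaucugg
miR160c-5p, chr5:19009158-19009178, minus strand: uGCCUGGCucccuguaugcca
miR390b-5p, chr5:23636961-23636981, plus strand: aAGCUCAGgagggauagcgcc
The precursor MIR163, whose product targets methyltransferases, had 46.9, 43 and 38.9 CPM in L4h and 0.0279, 0.23 and 0.0573 CPM in Dark (8.59 ± 0.66, adjusted p = 0.0011). MIR157c, of the family that targets SPL factors, had 0.717, 3.46 and 3.51 CPM in L4h and 0.126, 0.297 and 0.306 CPM in Dark (3.38 ± 0.71, adjusted p = 0.019, 0.071 without Dark replicate 2). MIR167b and MIR167d, whose products share the seed and target the auxin response factors ARF6 and ARF8, moved in opposite directions: MIR167b had 0.343, 0.315 and 0.315 CPM in L4h and 0.14, 0.105 and 0.124 CPM in Dark (1.39 ± 0.38, adjusted p = 0.042, 0.19 without Dark replicate 2). MIR167d had 3.43, 2.04 and 2.18 CPM in L4h and 10.1, 55.5 and 67.1 CPM in Dark (-4.12 ± 0.73, adjusted p = 0.01). MIR160c and MIR390b, which also act on auxin response factors, the second through tasiRNAs, had 0.769, 0.419 and 0.315 CPM in L4h and 1.55, 1.42 and 1.24 CPM in Dark (-1.48 ± 0.41, adjusted p = 0.043, 0.14 without Dark replicate 2) and 0.104, 0.0466 and 0.0504 CPM in L4h and 1.76, 0.593 and 0.181 CPM in Dark (-3.61 ± 0.93, adjusted p = 0.037, 0.12 without L4h replicate 2). MIR822 had 4.32, 4.17 and 3.24 CPM in L4h and 15.5, 27.3 and 21.7 CPM in Dark (-2.46 ± 0.26, adjusted p = 0.0019). Groups did not overlap in any of the 11, and MIR167b rests on 85 reads in L4h and 34 in Dark. The pair MIR167b and MIR167d was singled out after values were seen.

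Motifs were counted on both strands in the 250 bases before the gene start of 21427 tested genes. The G-box, CACGTG, was in 8.6% of the windows of genes that rose and 7.75% of those that fell, and in 7.36% of all tested. Among genes that rose at least 8-fold it was in 9.93%. The PIF-binding E-box, CATGTG, was in 9.81% of windows of genes that rose, 13.1% of those that rose at least 8-fold, 15.8% of those that fell and 24.1% of those that fell at least 4-fold, beside 11.1% of all tested. The auxin response element, TGTCTC, was in 11.6% of windows both of genes that rose and of genes that fell, 12.7% of those that rose at least 8-fold and 14.3% of those that fell at least 4-fold, beside 10.7% of all. The I-box, GATAAG, was in 13.3% of windows of genes that rose, 12.1% of those that fell and 12.4% of all. The evening element, AAAATATCT, was in 2.97% and 2.28%, beside 2.44%. These shares are descriptions of letters in a window, of which neighbouring genes can cover a part, and none was tested. The E-box stood in 4 of 8 windows of the genes with the largest loss in RPKM, GASA4 among them. With the largest gain it stood in 0 of 8. For the genes with the smallest p it stood in 2 of 10 windows of those that fell and 1 of 10 of those that rose.

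**Figure D5:**
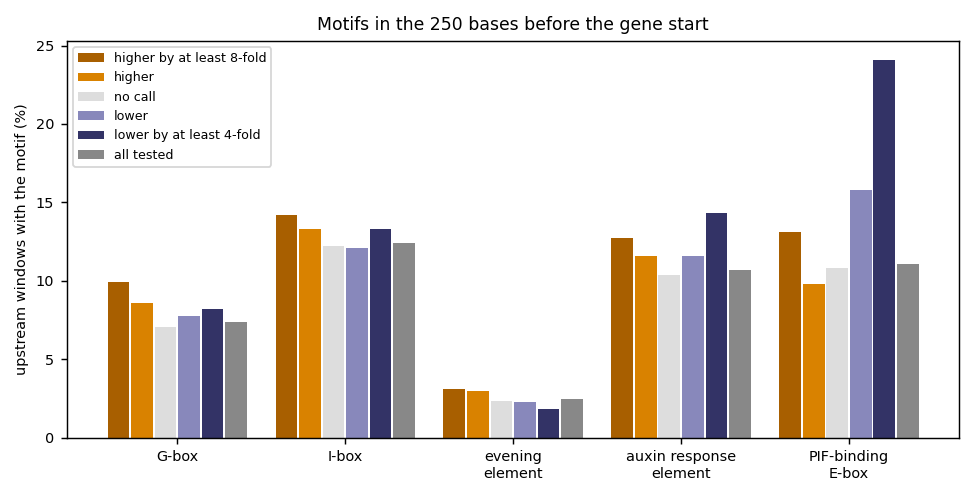
Bars give the percentage of 250-base upstream windows that hold each of 5 motifs, for tested genes by their change in L4h against Dark and for all tested genes. The share with the PIF-binding E-box is 24.1% among genes that fell at least 4-fold and 11.1% among all tested genes, while the G-box shares lie between 7.07% and 9.93%.

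The same genes were followed in libraries this comparison did not use. In polysome-bound RNA of the same treatments, 2006 of the 3135 genes that rose (64.0%) had L4h above Dark in all pairings of libraries and 0 had it below, beside 15.0% of all tested genes above. Of the 1893 that fell, 1399 (73.9%) were below and 0 above, beside 15.3% of all below. Polysome-bound libraries come from the same treatments, and the labels do not say whether from the same seedlings. SIG5 had 152, 223 and 269 CPM in L4h polysome libraries and 6.19, 1.29 and 1.07 CPM in Dark polysome libraries. FAH1 had 84.3, 122 and 156 CPM in L4h polysome libraries and 3.44, 0.807 and 0.942 CPM in Dark polysome libraries. RPT2 had 749.8, 765 and 860.2 CPM in L4h polysome libraries and 52, 18.4 and 13.5 CPM in Dark polysome libraries. TUB1 had 42.1, 27.3 and 59.2 CPM in L4h polysome libraries and 346, 272 and 532 CPM in Dark polysome libraries. In all 4 genes the polysome groups did not overlap and lay in the direction of total RNA.

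The D4h libraries, from seedlings kept 4 h longer in darkness, share no samples with these groups. D4h replicates 2 and 3 differed little more than sampling noise (median chi-square 1.34 over genes with at least 1000 reads, against 81.9 and 84.0 for the pairs with replicate 1), so they may not be independent samples. On a scaling over all 15 libraries SIG5 had 246, 195 and 139.5 CPM in L4h, 5.72, 1.03 and 0.741 CPM in D4h and 3.15, 0.753 and 0.918 CPM in Dark. KAC1 had 214, 208 and 248 CPM in L4h, 47.2, 25.1 and 24.7 CPM in D4h and 23.3, 21.1 and 20.9 CPM in Dark. GASA4 had 397, 265 and 299 CPM in L4h, 1668, 1964 and 1958 CPM in D4h and 1988, 1993 and 1637 CPM in Dark. SPCH had 4.07, 3.98 and 7.95 CPM in L4h, 4.88, 0.775 and 1.01 CPM in D4h and 0.947, 0.533 and 0.588 CPM in Dark. Of these 4 genes, D4h replicate 1 was among the L4h libraries in SPCH, and in the other 3 no D4h library was.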

How the data were processed

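Total RNA from the aerial part of seedlings was sequenced. The authors deposited per library a table of estimated counts per gene, RPKM and gene length, per the file headers; TAIR 10 is named in the submitters' processing notes, and the aligner and counter are not given in the sources used here. RPKM, as deposited by the authors, was used for levels per length, the ranking by gain and loss and the shares of summed RPKM. It also served an alternative filter and the limma fits. The deposited estimated counts were rounded and tested with edgeR 4.0.16 (R 4.3.3) by quasi-likelihood on the 6 libraries. Low genes were first removed by filterByExpr at a minimum of 10 counts, and TMM scaling followed. Benjamini-Hochberg adjustment ran over 21512 genes, with a threshold of 0.05. CPM are from these rounded counts. The test was also run on simulated counts, drawn independently per library and without an effect of the replicate number. That check therefore does not give the error rate in these libraries. The 6 libraries held 72.9 to 100.9 M reads, so counting error is small for all but the lowest genes.

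Replicate numbers may pair the samples, and the block was kept as an alternative. Deviations from the group means correlated at 0.61, 0.37 and 0.42 for the same-numbered libraries. They correlated at 0.23 for L4h replicate 2 with Dark replicate 3 and for L4h replicate 3 with Dark replicate 2. The other pairings, each with 1 library numbered 1, lay at -0.51 to -0.38. A pairing beyond the libraries numbered 1 is thus uncertain. The alternatives tried were RLE scaling, DESeq2 1.42.0, an RPKM filter, no filter, limma 3.58.1 on log2(RPKM + 1) and log2(RPKM + 0.1), 9 total RNA libraries, and libraries left out singly or by number. Genes named were the 10 with the smallest p in each direction, the 8 with the largest gain and loss in RPKM, and members of each list. Both rankings, by p and by RPKM, were limited to called genes whose groups did not overlap. The ranking by p also needed a mean of at least 10 CPM in the higher group. Of each list the first 2 tested and up to 3 with the largest called change were named, and further list members are examples. Members and lists were chosen with earlier results of these data known. Gene positions, products, promoters and mature microRNAs come from RefSeq TAIR10.1, to which 32835 of 33323 IDs matched. Exon bases shared with another gene are given where they exceed 10%.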

Additional observations from a re-analysis of the deposited data

Results flagged for a closer look

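The 8 genes with the largest gain in RPKM, the antenna and Rubisco genes and COR413-PM1, were summed in libraries outside the comparison, on a scaling over all 15 libraries. The sum was 16100 CPM in D4h replicate 1, against 2320 and 2130 CPM in D4h replicates 2 and 3, and 3370, 1710 and 1130 CPM in Dark. In L4h it was 31400, 16600 and 24200 CPM. In polysome-bound RNA of Dark seedlings replicate 1 had 16100 CPM, against 2160 and 2500 CPM in replicates 2 and 3; L4h polysome libraries had 101000, 24500 and 25800 CPM. Both signals stand above the Dark total RNA level in libraries that the comparison did not use, and their cause was not tested.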

How the results depend on the processing

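The main results are counts of genes that rose or fell, so an alternative can change their size but not a direction. The count of genes that rose was 225 without the libraries numbered 2 and 670 without those numbered 3, and 1523 to 3192 with 1 library left out. The count that fell was 3315 by DESeq2, 3748 with the replicate block, 3538, 38 and 190 without the libraries numbered 1, 2 and 3, and 644 to 2189 with 1 library left out. At 2-fold or more, 225 and 670 rose without the libraries numbered 2 and 3, and 1445 to 2516 with 1 left out; 1783 fell by DESeq2, 1761 with the replicate block, 1964, 38 and 190 without the libraries numbered 1, 2 and 3, and 576 to 1469 with 1 left out. Fewer libraries were fitted where libraries were left out, and the counts did not all move the same way. Without the pair numbered 1, 4363 rose and 3538 fell, above the 3135 and 1893 of the main fit. The cause of these shifts was not tested. Of 476 named and listed genes, 237 were called; 0 of the calls were lost with the replicate block and 73 were gained. The 9-library alternative, which adds the D4h libraries, counts D4h replicates 2 and 3 as separate although they differed little more than sampling noise. Without Dark replicate 2, 95 were lost. Depth limits the genes under about 1 CPM.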
